A study of Homo sapiens with 4 samples.

Results

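PLTP and 8 genes linked to it through the liver X receptors (LXRs) were examined in H1299, an established cell line from a human non-small-cell lung carcinoma with no p53 of its own. The 9 genes, PLTP, ABCA1, ABCG1, APOE, NR1H2, NR1H3, MYLIP, LPCAT3 and SCARB1, were taken by name from the 61852 genes of the deposited tables. All 4 libraries come from p53-/- H1299 cells, 2 from cells made to express wild-type p53 (p53WT) and 2 from cells made to express CASM34. The series title speaks of synonymous mutations associated with cancer and of the p53 response to DNA damage. The labels give CASM34 only as a mutant, state no drug, dose or time, and do not tell which cultures the libraries came from, so errors and p-values measure only the spread between libraries, which may be technical. The set was chosen by gene name with the fold changes of CASM34 over p53WT already known, so fold changes and adjusted p-values of the 9 genes are given as a description of these libraries, and nothing is supported with them.

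LXRs are nuclear receptors that are switched on by oxysterols, oxidised forms of cholesterol. They bind DNA together with a retinoid X receptor (RXR) and raise transcription of genes that move cholesterol and phospholipid out of the cell and onto lipoproteins. LXR alpha (NR1H3) is known mainly from liver, gut, fat and macrophages, while LXR beta (NR1H2) is found in most tissues. PLTP, the phospholipid transfer protein, is secreted and carries phospholipids between lipoproteins, and its gene is a known LXR target.

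The libraries held 18086983 to 26906095 estimated counts. All 9 genes were high enough to test among 15965 genes, and a gene passed where edgeR's quasi-likelihood test gave an adjusted p under 0.05 over all of them. Of markers of epithelial lines, the keratin genes KRT8 and KRT18 were abundant, with EPCAM, CDH1, NKX2-1 and SFTPC at 0.663 CPM (counts scaled to the library size) or less in every library. The mitochondrial share of counts was 1.09% to 1.44% in p53WT libraries and 1.45% to 1.81% in CASM34 libraries. In bulk RNA, fewer cells with a transcript and less of it per cell cannot be told apart.

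PLTP was the only one of the 9 genes that passed the test, and it was higher in CASM34. Its level was 89.5 and 88.9 CPM in the p53WT libraries and 127 and 123 CPM in the CASM34 libraries. Both CASM34 libraries lay well above both p53WT libraries, and libraries of the same group lay close together. The means were 89.2 ± 0.432 and 125 ± 2.73 CPM (SD, n = 2 each). The fitted rise was 1.41-fold, or 0.49 on the log2 scale (SE 0.05, edgeR adjusted p = 0.000686). Over all tested genes 312 (1.95%) passed, 257 as higher (1.61%) and 55 as lower (0.345%). Of all 15965 tested genes 808 had a larger fitted log2 fold change than PLTP, and of the 4659 with a mean of at least 50 CPM, 8 had. Leaving out any 1 library kept PLTP between 0.47 and 0.51 with adjusted p of 0.00338 or less (edgeR).

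PLTP (ENSG00000100979.15, GRCh38 chr20:45898621-45912155, minus strand, GENCODE 29) has 2 annotated RefSeq start sites. The bases upstream of the outer one are shown because PLTP is the gene that passed, and those of ABCA1, the best known LXR target, because they hold the LXR element searched for. Both are RefSeq reference sequence of GRCh38.p14, on the minus strand, 250 bases up to the start site: chr20:45912156-45912405 for PLTP and chr9:104928156-104928405 for ABCA1. Capitals mark TATAAA, and in ABCA1 also a pair of AGGTCA-like repeats.
PLTP: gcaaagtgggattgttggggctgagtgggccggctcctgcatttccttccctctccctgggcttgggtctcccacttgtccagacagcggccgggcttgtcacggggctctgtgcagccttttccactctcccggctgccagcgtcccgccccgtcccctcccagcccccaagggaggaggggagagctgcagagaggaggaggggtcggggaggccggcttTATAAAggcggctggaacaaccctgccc
ABCA1: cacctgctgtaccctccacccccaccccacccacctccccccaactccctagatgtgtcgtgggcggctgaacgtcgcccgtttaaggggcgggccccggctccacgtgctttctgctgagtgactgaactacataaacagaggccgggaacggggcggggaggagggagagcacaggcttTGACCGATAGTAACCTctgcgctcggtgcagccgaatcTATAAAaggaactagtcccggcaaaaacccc

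The LXR element searched for was a DR4, a direct repeat of AGGTCA with 4 bases between the copies and at most 1 mismatch in each, on both strands. It was present in 1.18% of 35116 annotated windows of this length. Windows were at hand for 7 of the 9 genes (13 windows), all except SCARB1 and ABCG1. The only match lay in ABCA1, starting at -69 from the start site on the opposite strand, where it reads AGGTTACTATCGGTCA. No match in the other windows says only that these letters are not there. TATAAA, a core promoter element, begins at -28 in PLTP and at -31 in ABCA1, and on either strand it is in 10.7% of all windows. The outer PLTP window is 66.8% G and C with 11 CpG sites, the inner one 62.8% with 17, and the median window is 58% G and C.

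PLTP overlaps the end of CTSA, the gene of the lysosomal carboxypeptidase cathepsin A, by 200 bases on the opposite strand. RSEM, the authors' counting tool, gave PLTP fractional counts in all 4 libraries, so some reads were shared between gene models, and the strand setting of the counting is not given in the sources used here. CTSA lay at 200 and 205 CPM in p53WT and at 222 and 226 CPM in CASM34. These groups did not overlap either, but the difference was smaller, with a log2 fold change of 0.15 (SE 0.04), and did not pass (edgeR adjusted p = 0.114). In TPM, a level per transcript length, PLTP stood at 0.480 and 0.458 of CTSA in p53WT and at 0.624 and 0.575 in CASM34. The 7 other tested genes whose bodies lie within 50 kb of PLTP did not pass. Among them NEURL2, at 2.32 to 5.64 CPM with overlapping groups, lay at 0.60 on the log2 scale with an SE of 0.26 (edgeR adjusted p = 0.253). PCIF1, an RNA methyltransferase gene and the nearest tested protein-coding gene upstream of PLTP, lay at 0.05 (SE 0.06, edgeR adjusted p = 0.713).

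**Figure D1:**
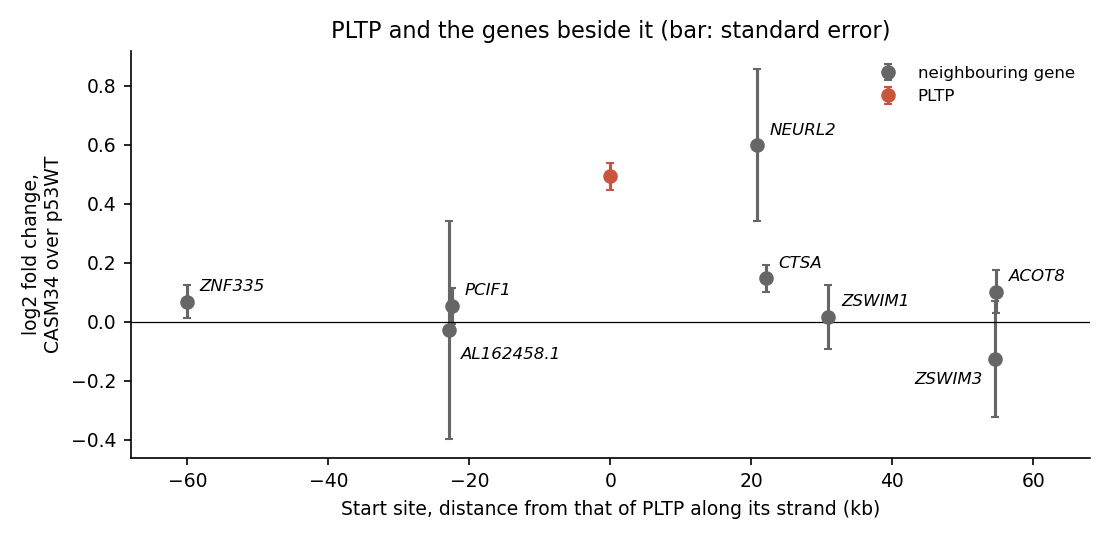
Log2 fold change of CASM34 over p53WT (vertical axis) for PLTP and the 8 tested genes whose bodies lie within 50 kb, by distance of their start sites from that of PLTP in kb along its strand (horizontal axis); bars are standard errors. PLTP at 0.49 has a short bar, CTSA lies at 0.15, and NEURL2 at 0.60 has a long bar.

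The receptors differed from each other in level. LXR beta (NR1H2, ENSG00000131408.15, chr19:50329653-50382982, plus strand) stood at 53.7 and 50.9 TPM in p53WT and at 62.6 and 57.7 TPM in CASM34. LXR alpha (NR1H3, ENSG00000025434.19, chr11:47248300-47269032, plus strand) stood at 10.5, 9.80, 11.6 and 10.0 TPM in the same order. NR1H2 was thus 5.10 to 5.77 times NR1H3 in TPM in every library, and H1299 cells carry mostly LXR beta transcript. This ratio compares levels within a library and was not used to choose the genes.

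For NR1H2 the groups did not overlap, at 67.1 and 63.1 CPM in p53WT and 75.9 and 73.7 CPM in CASM34. The log2 fold change was 0.20 (SE 0.05), and it did not pass (edgeR adjusted p = 0.0697). With 1 library left out, the log2 fold change of NR1H2 lay between 0.16 (without p53WT replicate 2) and 0.24 (without p53WT replicate 1). NR1H3 lay at 7.18 and 8.71 CPM in p53WT and between these values, at 8.20 and 7.67 CPM, in CASM34. Its log2 fold change was -0.0025 (SE 0.14, edgeR adjusted p = 0.995). The annotated body of NR1H2 spans NAPSA on the other strand, and that of NR1H3 overlaps ACP2 by 607 bases, so without strand their reads cannot be told apart where they overlap.

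Of the carriers, APOE was higher in both CASM34 libraries but did not pass. APOE (ENSG00000130203.10, chr19:44905754-44909393, plus strand) encodes an apolipoprotein that lipoprotein receptors recognise. It lay at 17.7 and 17.4 CPM in p53WT and at 21.2 and 21.8 CPM in CASM34. Both CASM34 libraries were higher than both p53WT libraries, by 0.29 on the log2 scale (SE 0.09), without passing (edgeR adjusted p = 0.103). Groups that do not overlap, with CASM34 higher, were found for 3 of the 9 genes, PLTP, NR1H2 and APOE, and for 24.5% of all tested genes. Groups that do not overlap with CASM34 lower were found for 0 of the 9 genes and for 23.4% of all tested genes.

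The efflux transporters, the usual readouts of LXR activity, showed no passing difference. ABCA1 (ENSG00000165029.17, chr9:104781002-104928237, minus strand), which loads cholesterol and phospholipid onto apolipoprotein A1, lay at 19.5 and 20.5 CPM in p53WT and at 20.0 and 23.9 CPM in CASM34. The groups overlapped, and the higher mean in CASM34 came from its second library. The log2 fold change was 0.12 (SE 0.10, edgeR adjusted p = 0.564), and it was -0.00083 without CASM34 replicate 2 and 0.25 without CASM34 replicate 1. ABCG1 (ENSG00000160179.19, chr21:42199689-42297244, plus strand), which passes cholesterol to high-density lipoprotein, had only 10 and 20 counts in p53WT and 6 and 15 in CASM34. Exact Poisson 95% intervals, which cover counting error only, ran from 4.80 to 18.4 and 12.2 to 30.9 counts in p53WT and from 2.20 to 13.1 and 8.40 to 24.7 in CASM34. At this depth no difference was detected for ABCG1 (log2 fold change -0.36, SE 0.61, edgeR adjusted p = 0.811). Its fitted value ran from -1.45 without CASM34 replicate 2 to 0.39 without CASM34 replicate 1.

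The genes for uptake and membrane lipids were close to level between the groups. MYLIP (ENSG00000007944.15, chr6:16129125-16148248, plus strand), a ubiquitin ligase that limits lipoprotein uptake, lay at 20.0 and 21.4 CPM in p53WT and at 21.5 and 19.2 CPM in CASM34. SCARB1 (ENSG00000073060.17, chr12:124776856-124882668, minus strand), the receptor for high-density lipoprotein, lay at 94.9 and 97.9 CPM in p53WT and at 105 and 93.2 CPM in CASM34. LPCAT3 (ENSG00000111684.11, chr12:6976186-7018510, minus strand), which puts polyunsaturated chains into phospholipids, lay at 62.2 and 61.3 CPM in p53WT and at 63.9 and 59.8 CPM in CASM34. In each of these genes both p53WT values lay between the CASM34 values, and CASM34 replicate 1 was the higher of the CASM34 libraries. Log2 fold changes were -0.02 (SE 0.09) for MYLIP, 0.05 (SE 0.06) for SCARB1 and 0.0062 (SE 0.05) for LPCAT3, with edgeR adjusted p-values of 0.941, 0.733 and 0.970. LPCAT3 had fractional counts in all 4 libraries and overlaps EMG1, which lies on the other strand at a mean of 126 CPM, by 21243 bases.

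**Figure D2:**
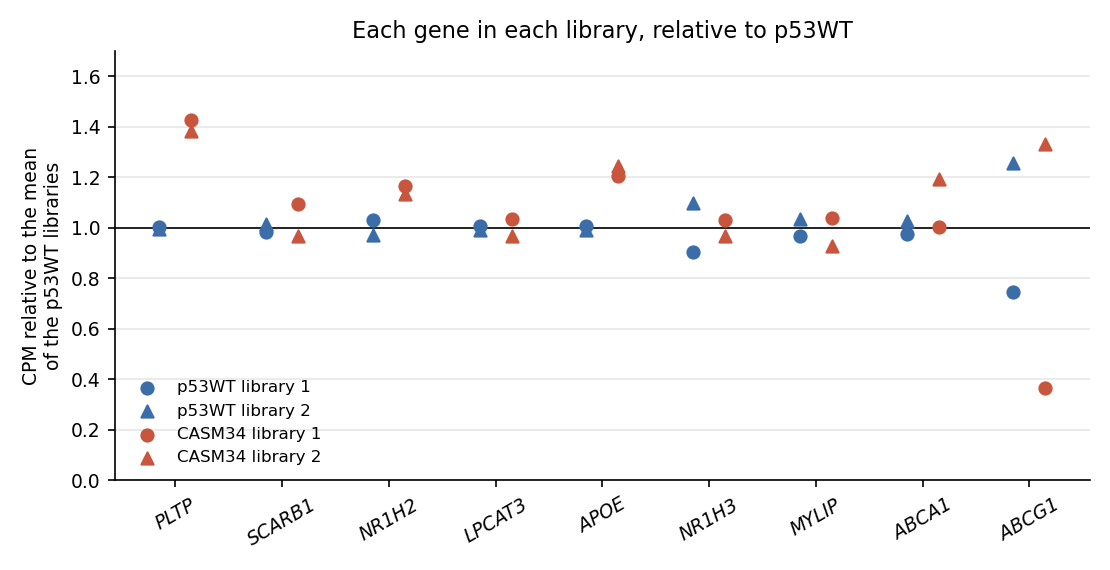
CPM of each gene in each library divided by the mean of its p53WT libraries (vertical axis, from 0), with p53WT in blue, CASM34 in red, and circles and triangles for libraries 1 and 2. Only PLTP, NR1H2 and APOE have both CASM34 points above both p53WT points, and the points of ABCG1, with 6 to 20 counts, are the most spread.

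Ordered by mean TPM over the 4 libraries, PLTP came first (82.3 ± 15.8 TPM, SD, n = 4), followed by SCARB1 (81.6 ± 8.10), NR1H2, LPCAT3, APOE, NR1H3, MYLIP, ABCA1 and ABCG1 (0.290 ± 0.0883). Over the 4 libraries of both groups only the ranges of PLTP and SCARB1 overlapped, while every other neighbouring pair was separated. The range and SD of PLTP over the 4 libraries include its difference between the groups. Within each group PLTP and SCARB1 did not overlap. The order of PLTP and SCARB1 was not the same in the 2 groups. PLTP stood at 69.9 and 67.6 TPM in p53WT, below SCARB1 at 76.3 and 83.8 TPM. In CASM34 PLTP stood at 97.8 and 94.0 TPM, above SCARB1 at 92.1 and 74.3 TPM in the same libraries. That change of order was not tested. By mean TPM, 88.4% of tested genes lay below PLTP, 83.3% below NR1H2, 25.3% below ABCA1 and 3.22% below ABCG1. ABCA1 was 7.34 to 12.1 times ABCG1 in TPM.

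**Figure D3:**
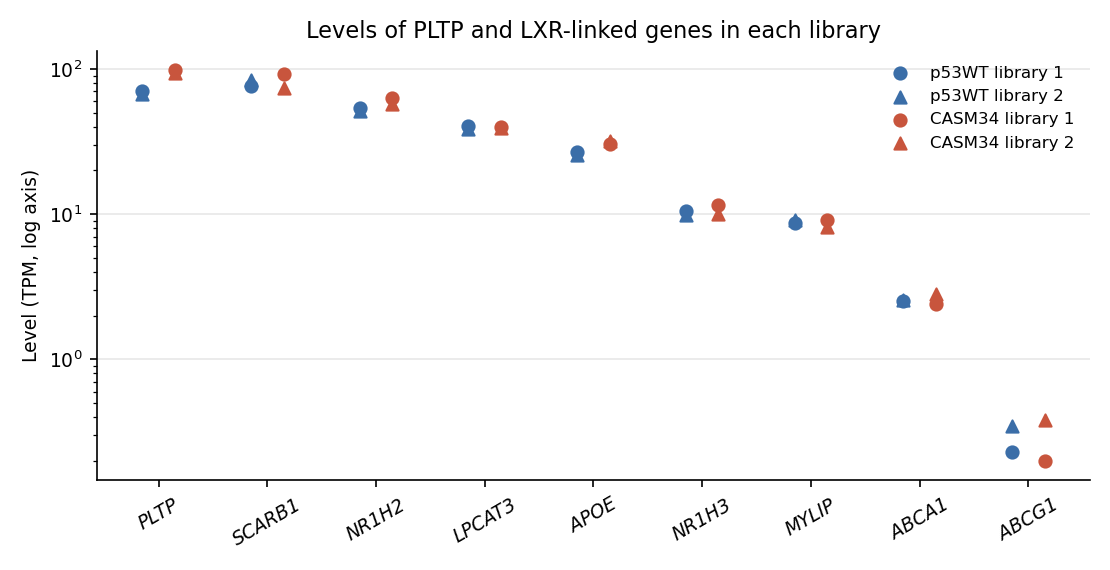
Level of each gene in TPM on a log axis (vertical) in each library, with genes ordered by their mean (horizontal); p53WT is blue, CASM34 red, and circles and triangles are libraries 1 and 2. PLTP and SCARB1 share the top of the range, and ABCA1 and ABCG1 lie lowest, at 2.42 to 2.80 and 0.20 to 0.38 TPM.

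Across all tested genes, transcripts rich in G and C tended to be higher in CASM34 than in p53WT. PLTP transcripts are 59.8% G and C, those of NR1H2 62.6% and those of APOE 66.0%, against a median of 49.5% over tested genes. The trend fitted on GC content and length over all tested genes was worth 0.13 at PLTP on the log2 scale, CASM34 minus p53WT, 0.19 at NR1H2 and 0.25 at APOE. With this trend as an offset in edgeR, PLTP had a log2 fold change of 0.36 (SE 0.04) and still passed (edgeR adjusted p = 0.00213), where 0.37% of all tested genes passed, 31 as higher and 28 as lower. Among genes with a mean of at least 50 CPM, 21 then had a larger fitted log2 fold change than PLTP. NR1H2 lay at 0.01 (SE 0.05) and APOE at 0.04 (SE 0.09), with edgeR adjusted p-values of 0.944 and 0.884. The differences of NR1H2 and APOE were thus about as large as the trend at their GC content, and that of PLTP was larger. For ABCA1, at 46.6% G and C, the trend was 0.01 and the log2 fold change with the offset 0.11 (SE 0.10). The median over the 9 genes was 0.05 without the offset and -0.02 with it, against -0.000547 and -0.02 over all tested genes.

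**Figure D4:**
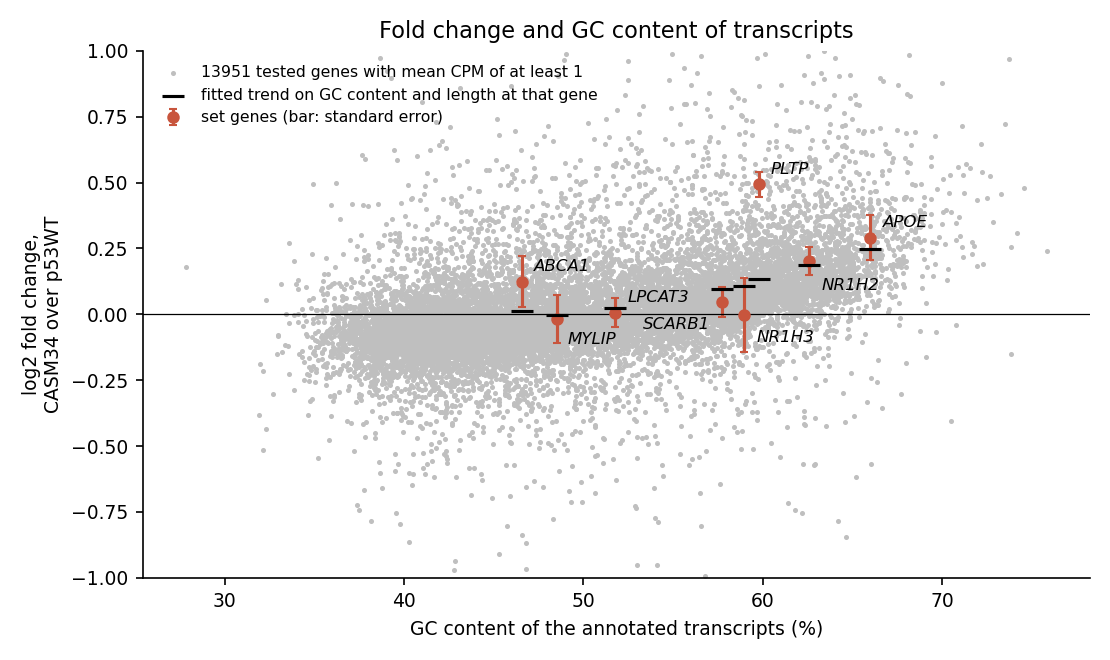
Log2 fold change of CASM34 over p53WT (vertical axis) against GC content of the annotated transcripts in percent (horizontal axis) for 13951 tested genes with a mean CPM of at least 1 (grey; 40 lie beyond the axis) and for 8 of the 9 genes (red, bars are standard errors; ABCG1 is below that level). Black dashes give the fitted trend at each of these genes; APOE and NR1H2 lie close to theirs, and PLTP lies above its own.

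On length-scaled values the fold change of PLTP was similar, but it did not pass. It lay at 0.47 in limma on log2(TPM + 1) (adjusted p = 0.260) and at 0.49 in edgeR with an effective length offset (adjusted p = 0.0940). In these fits 0 and 5 of the tested genes passed, while 1820 and 1882 had an unadjusted p under 0.05. The effective length of PLTP, an average over its 5 annotated transcripts weighted by RSEM, was 1535 and 1551 bases in p53WT and 1536 and 1555 in CASM34, a difference of 0.146% between means.

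Of 88 further genes in 7 pathway lists, 56 were high enough to test, 1 rose (ABCA2), 1 fell (SCD), and 54 did not pass (edgeR), where 1.95% of all tested genes passed, 1.61% as higher and 0.345% as lower. An unadjusted p under 0.05 was found for 14 of the 56 and for 17.1% of all tested genes, the background for the counts at that p given for each list. Their median log2 fold change was 0.01, with 30 above and 26 below 0. SCD, the stearoyl-CoA desaturase that makes monounsaturated fatty acids and a known LXR and SREBP target, was at 923 and 907 CPM in p53WT and at 772 and 792 CPM in CASM34. Both CASM34 libraries were lower, the opposite direction to PLTP, and SCD fell by 0.23 on the log2 scale (SE 0.05, edgeR adjusted p = 0.0247). Adjusted for GC content and length it lay at -0.22 (edgeR adjusted p = 0.0269). ABCA2, an endolysosomal lipid transporter gene, was at 32.1 and 28.8 CPM in p53WT and at 36.5 and 39.7 CPM in CASM34, a rise of 0.32 on the log2 scale (SE 0.07, edgeR adjusted p = 0.0478). It did not pass with that offset, at 0.09 (edgeR adjusted p = 0.673), or with upper-quartile or library-total scaling (edgeR adjusted p = 0.0513 and 0.0720). Neither SCD nor ABCA2 passed without p53WT replicate 1 (edgeR adjusted p = 0.172 and 0.0906) or without p53WT replicate 2 (edgeR adjusted p = 0.101 and 0.268).

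Among other LXR target genes 9 of 18 were tested, SCD alone passed, and 2 had an unadjusted p under 0.05. SREBF1, which encodes the lipogenic factor SREBP1, lay at 0.08 and FASN, fatty acid synthase, at -0.0094 (edgeR adjusted p = 0.413 and 0.958). FASN groups overlapped, at 723 and 661 CPM in p53WT and at 728 and 647 CPM in CASM34. The trend fitted on GC content and length was 0.28 at FASN. With it as an offset FASN lay at -0.29 (edgeR adjusted p = 0.0255), and also with a replicate block added. It lay at 0.037 in limma on log2(TPM + 1) and at 0.045 in edgeR with an effective length offset, without passing. The receptor partners and corepressor complex had 9 of 10 genes tested and 0 that passed, with 1 at an unadjusted p under 0.05. RXRA and RXRB, which encode the partners of the LXRs, lay at 0.11 and 0.01 (edgeR adjusted p = 0.292 and 0.933), and RXRG was too low to test.

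Of lipoprotein receptors and uptake genes 6 of 11 were tested, with 0 that passed and 1 at an unadjusted p under 0.05. Sterol and oxysterol handling had 13 of 18 tested, with 0 that passed and 2 at an unadjusted p under 0.05. SREBF2, the factor for cholesterol synthesis genes, lay at 0.03 there (edgeR adjusted p = 0.772), and the oxysterol-forming enzyme genes CH25H, CYP27A1 and CYP46A1 were too low to test. Phospholipid transfer and remodelling genes had 10 of 12 tested, with 0 that passed and 3 at an unadjusted p under 0.05. BPI and LBP, relatives of PLTP, were too low to test, as was CETP. The phosphatidylinositol transfer gene PITPNA, the most abundant in CPM of that list, lay at -0.02 (edgeR adjusted p = 0.899).

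Other ABC lipid transporters had the highest median of the 7 lists, 0.20 with 7 of 9 genes tested. ABCA2 alone passed, and 5 of the 7 had an unadjusted p under 0.05. With the GC and length offset that median was 0.01, and the median GC content of these genes was 60.2%. Of other apolipoprotein genes 2 of 10 were tested, with 0 that passed and 0 at an unadjusted p under 0.05. CLU, clusterin, lay at -0.05 and APOM at 0.08 (edgeR adjusted p = 0.697 and 0.962).

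**Figure D5:**
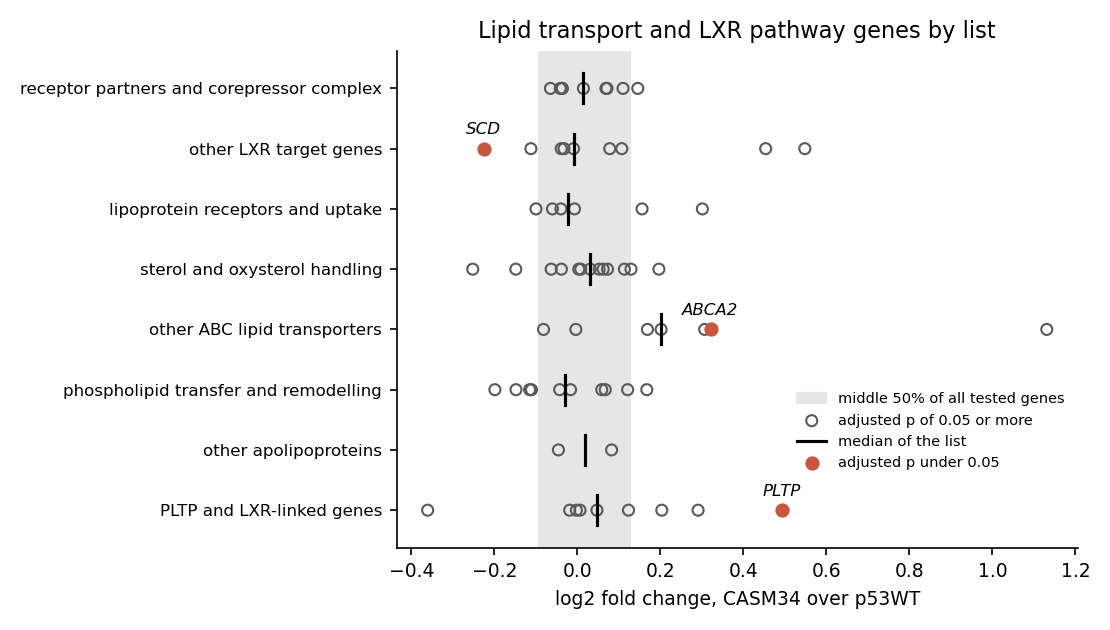
Log2 fold change of CASM34 over p53WT (horizontal axis) for the tested genes of each pathway list and for the 9 genes (rows); red points have an edgeR adjusted p under 0.05, open points do not, black lines are medians, and grey is the middle 50% of all tested genes, from -0.09 to 0.13. The passing genes are SCD at -0.23, ABCA2 at 0.32 and PLTP at 0.49.

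LXR targets are prominent in macrophages and hepatocytes, so markers of these cells were examined. Of 6 macrophage and leukocyte markers PTPRC and CSF1R had 0 counts in every library, where 3 counts would be 0.111 to 0.166 CPM, and only ITGAM was tested. Summed, they reached 5.75 and 4.22 CPM in p53WT and 6.47 and 6.30 CPM in CASM34, nearly all of it ITGAM (log2 fold change 0.41, edgeR adjusted p = 0.239). Of 6 hepatocyte markers TTR, APOA2, FGB and HNF4A had 0 counts in every library and ALB at most 0.230 CPM. SERPINA1, the only one tested, lay at -0.18 (edgeR adjusted p = 0.228), and the summed level was 32.9 and 36.0 CPM in p53WT and 30.6 and 30.3 CPM in CASM34. Fibroblast and endothelial markers summed to 3.36 and 3.58 CPM in p53WT and 3.57 and 4.42 CPM in CASM34, with LUM at 0. Whether such cells had a part in these differences was not tested.

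The tested genes whose pattern over the 4 libraries lay nearest to that of PLTP, by Euclidean distance of centred log2 CPM among 13449 genes with a symbol and a mean of at least 1 CPM, were IER5L, SPPL2B, IL4I1, FAHD2CP and PRRX2. Distances ran from 0.0497 for IER5L to 0.0644 for PRRX2, and 28 genes lay within 0.1. IER5L, an immediate early response gene, lay at 52.8 and 52.8 CPM in p53WT and at 72.9 and 70.6 CPM in CASM34, and the libraries of a group lay close together, as for PLTP. The 5 genes were picked by likeness to PLTP in these same libraries, so a similar rise and close libraries follow from the choice. Among them IER5L, SPPL2B and PRRX2 passed and IL4I1 and FAHD2CP, at means of 1.95 and 2.21 CPM, did not. Over all tested genes 1.95% passed. When GC content and length were adjusted for, none of the 5 passed (edgeR adjusted p from 0.102 for IER5L to 0.633 for PRRX2), against 0.37% of all tested genes.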

How the data were processed

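Poly(A) RNA was sequenced from 4 H1299 libraries, 2 for p53WT and 2 for CASM34. The tools named are STAR, RSEM and Trim Galore, with GRCh38 as the build, per the submitters' processing notes. Tool versions, gene annotation and strand setting were not given in the sources used here. For each of 61852 genes the deposited tables hold TPM, FPKM, an effective length and an expected count, per the file headers. The authors made the expected counts with RSEM, which divides reads between overlapping gene models. The authors' RSEM also scaled TPM and FPKM for length and depth, per the file headers, and FPKM, which within a library is TPM times a constant, supports no result here.

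Counts were rounded and tested in edgeR 4.0.16 in R 4.3.3 by its quasi-likelihood F test, with TMM scaling and filterByExpr (minimum count 10), and with no term besides group. Of all genes 45887 were too low and 15965 were tested. Fold changes are CASM34 over p53WT, SEs are absolute log2 fold changes divided by the root of the F statistic, and a gene passed when its p, adjusted over all tested genes by Benjamini-Hochberg, was under 0.05. CPM uses TMM factors (0.993 to 1.01), except for the cell type markers, their sums and the floor of 3 counts, which use library totals. Totals were 21717726 and 25969760 counts (p53WT) and 26906095 and 18086983 (CASM34), and a floor of 3 counts is 0.111 to 0.166 CPM. Counts of the libraries of a group differed by more than counting error (chi-square per degree of freedom 3.86 and 3.92), so each was taken as a separate library. Gene names were matched by gene ID, coordinates and GC content come from GENCODE 29 (58298 of 61852 IDs, versions ignored), and promoter windows from RefSeq.

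For the GC and length offset, natural splines with 5 degrees of freedom for GC content and 5 for effective length were fitted per library to log2 CPM (prior count 2) centred on each gene's mean. GC content was known for 15664 tested genes, and the others had a trend of 0. Alternatives were other scalings and filters, DESeq2 1.42.0, limma 3.58.1 (voom, or log2(TPM + 1) and log2(TPM + 0.1)), length and GC offsets, a replicate block and leaving out each library. The edgeR script was tested on simulated data.

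The genes and lists were chosen with earlier results of these data known. The 9 genes are all named; of each list, up to 4 passing genes by adjusted p, or else the one highest in CPM, and a few more chosen after their values were seen (SREBF1, FASN, RXRA, RXRB, APOM, NEURL2 and PCIF1). The 5 genes most like PLTP were named by distance. Some genes that this rule would name are not reported here.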

Additional observations from a re-analysis of the deposited data

How the results depend on the processing

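The edgeR test reported covered 15965 genes, 56 of them in the pathway lists. With no filter on low counts 26177 genes were tested, 76 of them in those lists. PLTP kept its direction in all 17 alternatives, with log2 fold changes from 0.36 to 0.51, and passed in 14. It did not pass with an effective length offset (0.49, edgeR adjusted p = 0.0940) or in limma on log2(TPM + 1) and log2(TPM + 0.1) (0.47 and 0.48, adjusted p = 0.260 and 0.255), where 5, 0 and 0 of all tested genes passed (1882, 1820 and 1811 at an unadjusted p under 0.05); the cause was not tested. The number of the 9 genes that passed, 1 in the edgeR test reported, was 0 in these 3 fits, 2 with no filter on low counts (NR1H2 added, at 0.20), and 1 to 2 when a library was left out. The number of all genes that passed was 312, 777 with no filter on low counts, 59 with the GC and length offset, and 109 to 919 when a library was left out (leaving out p53WT library 1 gave 109 and library 2 gave 153, while leaving out CASM34 library 1 gave 497 and library 2 gave 919). Of the pathway genes 2 passed, against 1 with upper-quartile or library-total scaling, DESeq2 or limma-voom, 4 with no filter on low counts, 0 in limma on either TPM scale or with an effective length offset, and 0 to 5 when a library was left out.

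Replicate numbers are not said to mark a shared culture or day, and same-numbered libraries hardly deviated together (correlation 0.0335 across genes). With a replicate block 1159 genes, 3 of the 9 genes (PLTP, APOE at 0.29 and NR1H2 at 0.20) and 7 pathway genes passed, and with block and GC and length offset together PLTP, at 0.36, was the only one of the 9 to pass, among 413 of all tested genes.

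The fitted values of NR1H3, LPCAT3, SCARB1 and MYLIP, near 0, changed sign in some alternatives, none of them past the threshold. So did those of ABCA1 and ABCG1, at 0.12 and -0.36 in the edgeR test reported. NR1H3 lay at 0.0013 with library-total scaling, 0.00018 with a mean CPM of at least 1, 0.0015 in limma-voom, 0.076 and 0.082 in limma on log2(TPM + 1) and log2(TPM + 0.1), 0.10 with an effective length offset, 0.0064 with a replicate block, and -0.14 to 0.15 when a library was left out. LPCAT3 lay at -0.00071 with no filter, -0.0085 and -0.0086 in limma on the TPM scales, -0.017 with the GC and length offset, -0.020 with it and the block, and -0.047 to 0.049 when a library was left out. With the GC and length offset SCARB1 was at -0.052, at -0.055 with it and the block, and at -0.051 to 0.13 when a library was left out. With an effective length offset ABCG1 was at 0.012, and with a mean CPM of at least 1 it had no value. When a library was left out, ABCG1 lay at -1.45 to 0.39, MYLIP at -0.11 to 0.054 and ABCA1 at -0.00083 to 0.25, and the lone library of a group was assumed to vary like the other group. Precision is limited by the 2 libraries in each group, and for ABCG1 also by its 6 to 20 counts.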

Other observations

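The effective length that RSEM assigned to a gene moves with the mix of its transcripts, and it differed between libraries for some of the 9 genes. For NR1H3, with 35 annotated transcripts, it was 818 and 1048 bases in p53WT and 836 and 908 in CASM34. The p53WT libraries were farther apart than the group means, which differed by -6.52%. ABCA1 had 9291 and 9426 bases in p53WT and 9773 and 10106 in CASM34, so that its groups did not overlap (6.21% between means). In TPM the ABCA1 groups stood at 2.52 and 2.57 (p53WT) and 2.42 and 2.80 (CASM34), a log2 ratio of means of 0.04, against 0.12 fitted on counts. For APOE the effective length was 795 and 800 bases in p53WT and 822 and 815 in CASM34 (2.64% between means), again without overlap. ABCG1 ranged from 1305 to 2623 bases on 6 to 20 counts. None of these differences in length was tested.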
